A study of Mus musculus with 12 samples.

Results

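The 38 genes described here serve the uptake, storage and oxidation of fatty acids in muscle. They are a list of symbols, from transporters and lipases through the carnitine shuttle to the enzymes of beta-oxidation, their electron carriers and a few regulators. The rule of the list uses no measured value, but the list was chosen with earlier results of these data known. All 38 were found among the 30323 genes measured, and all 38 had a mean of at least 1 TPM, the level above which 10757 genes were tested. Sequenced RNA came from soleus, a hindlimb muscle of posture that is rich in slow oxidative fibres. The donors were male C57BL/6N mice aged 24 months from an aging colony, housed singly with a running wheel for 8 weeks. The 4 groups, with 3 libraries each, were high functioning (HF) mice 5 days after laparotomy, an opening of the abdomen, HF controls, low functioning (LF) mice 5 days after laparotomy, and LF controls. HF and LF were assigned by performance on an accelerating rotarod, so they are groups of animals sorted by behaviour, with no genetic or drug difference named. Whether the libraries come from separate mice is not stated in the labels, nor what the control mice underwent. Every p-value therefore reflects no more than how far these libraries spread, and that may be technical.

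In muscle, fatty acids reach the fibre after lipoprotein lipase frees them in the capillary, cross the membrane with the help of CD36 and fatty acid transport proteins, and are bound in the cytosol by a fatty acid binding protein. Long-chain acyl-CoA synthetases activate them, and carnitine palmitoyltransferases carry the acyl chain into mitochondria, a step that malonyl-CoA blocks. There the beta-oxidation spiral shortens the chain by repeated dehydrogenation, hydration, a second oxidation and thiolysis, and the electrons of the first step pass through electron transfer flavoprotein to ubiquinone. The nuclear receptors PPAR alpha and PPAR delta are known to drive many of these genes by binding DNA as partners of RXR.

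The values are in TPM, a share of all transcripts that is scaled for transcript length, so that levels can be compared between genes. The rows of a library summed to 956473 to 962830 TPM, and since TPM keeps no read depth, none is given. Each library listed 10324 to 10954 genes at 1 TPM or more. The 38 genes together held 0.625 to 0.833% of the TPM of an HF library and 0.709 to 1.25% of that of an LF library, the highest being LF laparotomy 3. That library stood apart: it gave the highest of the 12 values for 29 of the 38 genes, against 36% of all tested genes, and its 13 mitochondrially encoded genes held 26.4% of TPM, against 30.6% to 39.7% elsewhere. On the other side HF laparotomy 1 was lowest for 35% of all tested genes and for 7 of the 38, and HF laparotomy 2 for 14.8% of all and 14 of the 38. All 7 slow and all 8 fast fibre markers checked were at 1 TPM or more in every library. Changes are given as differences of log2(TPM + 1) ± SE, tested with limma and adjusted over all 10757 genes by the method of Benjamini and Hochberg at a threshold of 0.05. Because the median of all genes lay at -0.147 in HF minus LF as deposited and at -0.00726 after division by median-of-ratios size factors, differences between HF and LF are printed relative to that median, while the adjusted p-values test the uncentred values. The adjusted p with size factors stands beside them. Averaged over treatments, Acsl6, Cpt1a, Cpt2 and Eci1 are therefore printed above 0 although their uncentred differences were below 0. Gene positions are those of GENCODE M21 on GRCm38.

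A few regulatory sequences are shown first, because the results turn on genes that moved together and on synthetase genes that did not. They are from RefSeq (GRCm38.p6), 5′ to 3′, and which to show was chosen after the values were seen. Promoter windows, from 250 bases before to 50 bases after a start, were at hand for 33 of the 38 genes (39 windows), not for Cpt1b, Decr1, Lpl, Acad9 and Acaa2. In them the core hexamer of nuclear receptor sites, AGGTCA on either strand, was found for 8 genes, Cd36, Acsl6, Cpt1a, Acacb, Acadm, Acadvl, Echs1 and Ucp3, in 20.5% of their windows against 16.3% of all 32851 windows. The longer element TCAAGGTCA, which holds that hexamer and is bound by estrogen-related receptors, was found once, in a window of Acsl6, and in 0.423% of all windows. A direct repeat of AGGTCA with 1 base between the copies, the element of PPAR with RXR, was in none of the 39 windows and in 0.0396% of all. The bases before the RefSeq start of that Acsl6 window (chr11:54303574-54303823, plus strand) are given with the element in capitals, here on the opposite strand. GENCODE M21 starts Acsl6 at 54303798, within this stretch, so that its last bases lie inside the gene by that annotation. Those of Acadm (chr3:153944644-153944893, minus strand), one of the genes lower in HF, have the hexamer in capitals, also on the opposite strand. The stretch between the starts of the divergent genes Hadha and Hadhb in GENCODE M21 (chr5:30155163-30155247, plus strand, 85 bases) is in capitals throughout, since all of it is shared by the 2 genes.
Acsl6 window: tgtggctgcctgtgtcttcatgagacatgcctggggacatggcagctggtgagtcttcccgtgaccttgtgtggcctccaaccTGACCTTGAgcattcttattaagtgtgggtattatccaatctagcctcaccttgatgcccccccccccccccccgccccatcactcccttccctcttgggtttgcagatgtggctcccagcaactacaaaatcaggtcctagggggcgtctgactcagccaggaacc
Acadm upstream: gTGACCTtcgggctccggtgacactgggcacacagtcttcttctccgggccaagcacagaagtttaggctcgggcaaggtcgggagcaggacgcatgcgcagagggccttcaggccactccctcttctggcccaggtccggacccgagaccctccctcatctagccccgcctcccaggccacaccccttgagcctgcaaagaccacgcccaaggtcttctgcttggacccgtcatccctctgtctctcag
Hadha to Hadhb: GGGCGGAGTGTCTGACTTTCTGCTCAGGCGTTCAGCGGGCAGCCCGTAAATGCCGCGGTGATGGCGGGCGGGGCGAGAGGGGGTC

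HF was set against LF muscle first, averaged over treatments, with 6 libraries on each side. As deposited, 24 of the 38 genes fell in HF, against 35.3% of all tested genes, and 0 rose, against 6.03%. The called share was 63.2% of the 38 genes and 41.3% of all. With size factors 13 of these fell, against 22.6% of all genes, and 2 others rose, against 17.4%. The called share was then 39.5% of the 38 genes and 40% of all. The fitted difference was above 0 as deposited only for Acsl5, Lipe, Acad10 and Etfb. The 13 lower under both scalings were Acsl1, Acsl4, Acacb, Acadl, Acadm, Acads, Acad9, Acad11, Hadh, Eci2, Decr1, Etfdh and Ppara. The 11 whose call ended with size factors were Cd36, Slc27a1, Slc27a4, Pnpla2, Cpt1b, Acadvl, Hadha, Hadhb, Echs1, Etfa and Ppard. With size factors and without LF laparotomy 3, a setting added after seeing the data, Acadl, Acadm, Acads, Eci2 and Decr1 were no longer called (adjusted p from 0.0715 to 0.104), and the other 8 were. The median over the 38 genes was -0.383 in HF minus LF as deposited, against -0.147 for all tested genes, and -0.217 with size factors, against -0.00726. In 12 genes every HF library lay below every LF library, against 9.31% of all tested genes, and in 0 genes every HF library lay above, against 1.77% of all. In bulk muscle, fewer cells of a type and less RNA per cell cannot be told apart.

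**Figure D1:**
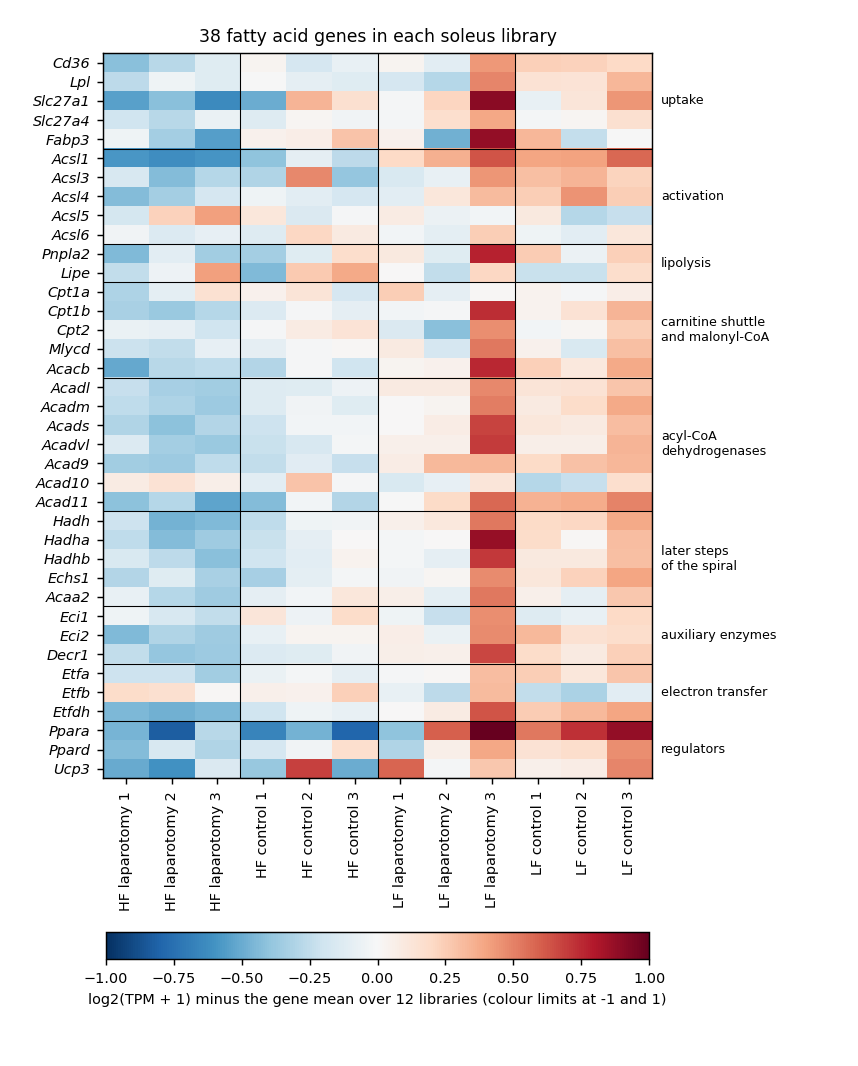
Heatmap of log2(TPM + 1) of the 38 genes (rows, grouped by role) in the 12 libraries (columns), each minus the mean of its gene over the libraries, with colours limited at -1 and 1. Most rows are mainly blue in the 6 HF libraries at the left and mainly red in the 6 LF libraries at the right, with the strongest reds in LF laparotomy 3. Etfb, Acad10, Acsl5, Lipe, Acsl6, Cpt2 and Fabp3 are among the rows that are not.

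**Figure D2:**
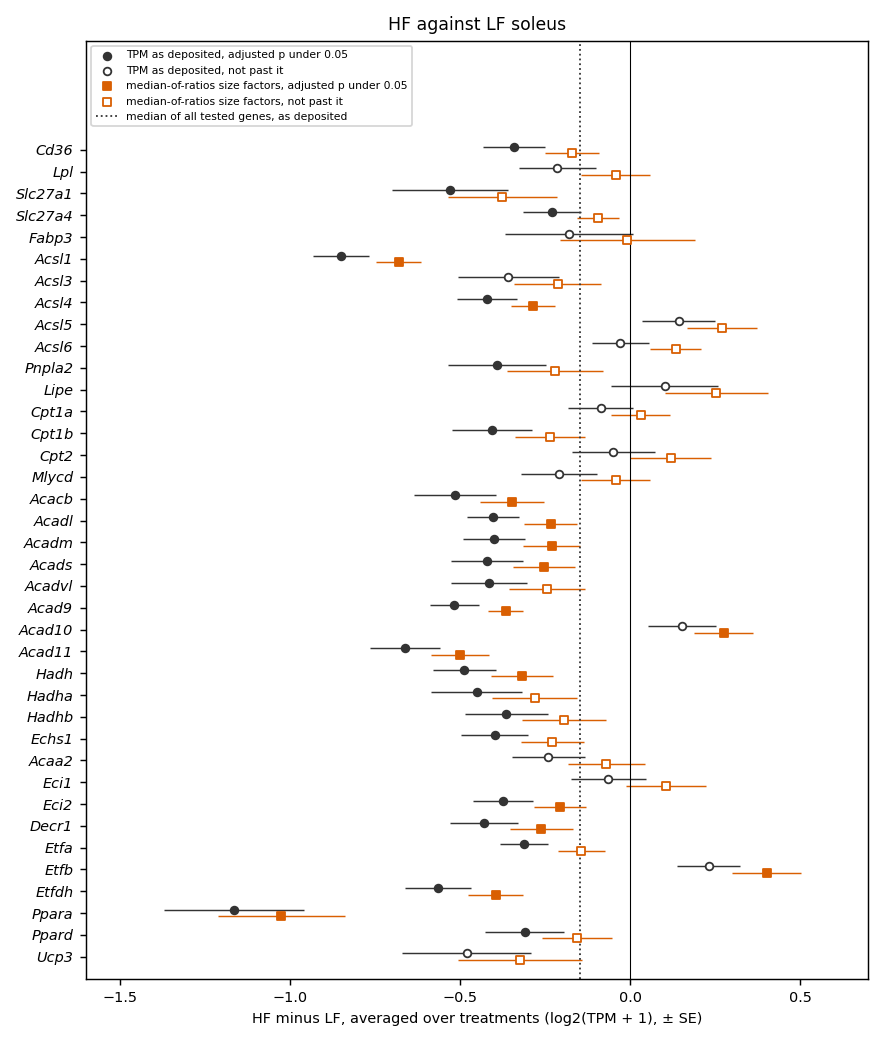
HF minus LF averaged over treatments, in log2(TPM + 1) ± SE, for each gene as deposited (circles) and with median-of-ratios size factors (squares), 6 libraries against 6. Filled symbols passed an adjusted p of 0.05, and the dotted line is the median of all tested genes as deposited, at -0.147, from which the distance gives the relative differences in the text.

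The 5 genes of fatty acid activation differed among themselves, with 2 lower in HF under both scalings and 3 not called. Of all tested genes 35.3% were lower as deposited and 22.6% with size factors. Acsl1 (ENSMUSG00000018796, chromosome 8 from 46471037 to 46536051 on the plus strand), the main long-chain acyl-CoA synthetase of oxidative muscle, had 86.7, 84.1 and 86.3 TPM in HF laparotomy and 98.3, 122 and 108 TPM in HF control muscle. LF muscle had 149.6, 167 and 202 TPM after laparotomy and 171, 172 and 194 TPM in controls. All HF libraries lay below all LF libraries, and HF laparotomy was also below HF control. Relative to all genes the difference was -0.70 ± 0.083, adjusted p = 0.000147 as deposited and 0.000182 with size factors. Acsl4, which prefers arachidonate, had 2.62, 2.87 and 3.36 TPM after laparotomy and 3.76, 3.55 and 3.35 TPM in controls of the HF mice, against 3.56, 4.29 and 5.09 TPM after laparotomy and 4.81, 5.7 and 4.8 TPM in controls of the LF mice. It fell at a far lower level of expression, with groups that overlapped only across treatments (-0.27 ± 0.088, adjusted p = 0.00305 as deposited and 0.00532 with size factors), a call that ended when a length and GC trend was removed (adjusted p = 0.0844). Acsl6 (ENSMUSG00000020333, chromosome 11 from 54303798 to 54364756 on the plus strand), shown here after its values were seen, a synthetase best known from brain that favours polyunsaturated chains, stood in contrast at 21.4, 19.8 and 20.6 TPM in HF laparotomy and 20, 25.4 and 23.4 TPM in HF control muscle. The LF libraries were at 21.5, 20.4 and 26.2 TPM after laparotomy and 21.3, 20.3 and 23.8 TPM in controls. Its HF and LF libraries overlapped, and it did not pass (0.12 ± 0.084, adjusted p = 0.799 as deposited and 0.175 with size factors). Acsl3 (4.11 to 8.62 TPM in HF and 5.18 to 8.34 TPM in LF, -0.21 ± 0.15) and Acsl5 (2.53 to 4.3 TPM in HF and 2.27 to 3.25 TPM in LF, 0.29 ± 0.11) did not pass either, with adjusted p of 0.0676 and 0.304 as deposited.

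These levels give shares within a library that no scaling between libraries can move. Acsl1 made up 73.2, 73.4 and 72.4% in HF laparotomy and 75.6, 75.3 and 76.1% in HF control muscle, against 81.7, 83.4 and 82.6% in LF laparotomy and 82.3, 82.7 and 83.6% in LF control muscle of the TPM of the 5 synthetase genes. The share of Acsl6 was 18.1, 17.3 and 17.3% in HF laparotomy and 15.4, 15.6 and 16.4% in HF control muscle, against 11.7, 10.2 and 10.7% in LF laparotomy and 10.2, 9.74 and 10.3% in LF control muscle. Neither share overlapped between HF and LF, the first lower in HF and the second higher, and both sets of HF laparotomy libraries lay beyond the HF controls. Acsl3, Acsl4 and Acsl5 each held at most 5.31% of the family in any library. These shares were described without a test.

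**Figure D3:**
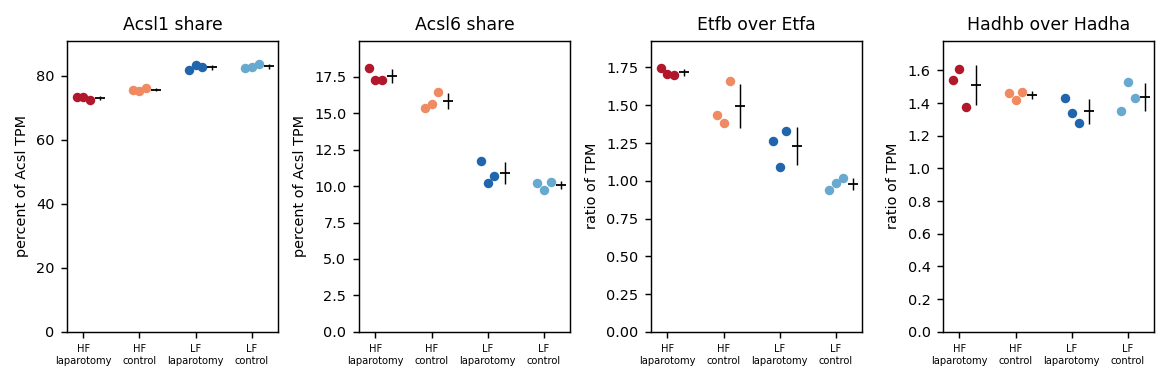
Ratios formed within each library: the share of Acsl1 and of Acsl6 in the TPM of 5 synthetases (percent), and the ratio of Etfb to Etfa and of Hadhb to Hadha (TPM over TPM), with points for libraries and black marks for group mean ± SD (n = 3). HF lies below LF for Acsl1 and above it for Acsl6 and for Etfb over Etfa, while Hadhb over Hadha overlaps.

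Uptake genes included the 2 most abundant of all 38, and none fell under both scalings averaged over treatments. Fabp3, the fatty acid binding protein of heart and muscle, averaged 2071 TPM over the 12 libraries and Lpl, lipoprotein lipase, 948 TPM. The lowest mean of the 38 genes was 2.5 TPM, for Cpt1a. Fabp3 was at 1362 to 2442 TPM in HF and 1434 to 3677 TPM in LF (-0.03 ± 0.19, adjusted p = 0.465). Lpl was at 780.3 to 933 TPM in HF and 766 to 1312 TPM in LF (-0.07 ± 0.11, adjusted p = 0.146). Both overlapped between HF and LF, and Fabp3 has a near-identical pseudogene at 2.49 TPM. Cd36, the fatty acid translocase of the plasma membrane, had 179, 198 and 221 TPM after laparotomy and 244, 213 and 227 TPM in controls of the HF mice, against 245, 223 and 324 TPM after laparotomy and 283, 282 and 274 TPM in controls of the LF mice. Within each treatment HF lay below LF, and its fall as deposited ended with size factors (-0.20 ± 0.091, adjusted p = 0.00999 as deposited and 0.103 with size factors). Slc27a1, the fatty acid transport protein of muscle and fat, had 6.27, 6.92 and 5.79 TPM in HF laparotomy and 6.48, 12.4 and 10.8 TPM in HF control muscle. Values in LF muscle were 9.5, 11.3 and 18.7 TPM after laparotomy and 9.03, 10.5 and 13.3 TPM in controls, with overlap between HF and LF. It was lower as deposited only (-0.38 ± 0.17, adjusted p = 0.0246 as deposited and 0.08 with size factors), and not without HF control 1, LF laparotomy 3 or LF control 3 (adjusted p up to 0.0634). Slc27a4, a related transporter at 2.79 to 3.65 TPM in HF and 3.55 to 5.01 TPM in LF, passed as deposited (adjusted p = 0.044) but in only 3 of the 12 fits without a library.

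Of the lipases of stored triglyceride, Pnpla2, which encodes adipose triglyceride lipase, had 124, 156 and 132 TPM in HF laparotomy and 133, 154 and 190.4 TPM in HF control muscle. For LF mice they were 180, 154 and 288 TPM after laparotomy and 201, 161 and 199 TPM in controls. The groups overlapped, and its difference passed as deposited only (-0.24 ± 0.14, adjusted p = 0.0421 as deposited and 0.227 with size factors) and in 5 of the 12 fits that left out a library. Lipe, hormone-sensitive lipase, ranged over 5.92 to 11.5 TPM in HF and 6.94 to 9.88 TPM in LF and did not pass (0.25 ± 0.16, adjusted p = 0.634).

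At the mitochondrial gate Cpt1b, the muscle form of carnitine palmitoyltransferase 1, was nearly the only one expressed: it held 98.2 to 98.8% of the TPM of Cpt1a and Cpt1b in HF and 98.3 to 99.2% in LF libraries. Its level, 147 to 189 TPM in HF and 187 to 318 TPM in LF, was lower as deposited and not with size factors (-0.26 ± 0.12, adjusted p = 0.0155 as deposited and 0.0844 with size factors). A protein-coding gene annotated on the same strand shares 2744 of its exon bases, so its value is uncertain. Acacb (ENSMUSG00000042010, chromosome 5 from 114146535 to 114250761 on the plus strand), the acetyl-CoA carboxylase whose malonyl-CoA restrains Cpt1b, had 40.5, 47.8 and 48.5 TPM after laparotomy and 47.3, 57.7 and 50.7 TPM in controls of the HF mice, against 59.4, 60 and 98.6 TPM after laparotomy and 68.9, 62.6 and 75.8 TPM in controls of the LF mice. Every HF library was below every LF library, and Acacb fell under both scalings (-0.37 ± 0.12, adjusted p = 0.00523 as deposited and 0.0131 with size factors). Mlycd, which removes malonyl-CoA, was at 45.1 to 54.1 TPM in HF and 47.7 to 78 TPM in LF (-0.06 ± 0.11, adjusted p = 0.144). Cpt2, the inner membrane enzyme, was at 44.3 to 56.1 TPM in HF and 38.1 to 71 TPM in LF (0.10 ± 0.12, adjusted p = 0.772), and Cpt1a, the liver form, was at 1.81 to 2.86 TPM in HF and 2.28 to 3.13 TPM in LF (0.06 ± 0.096, adjusted p = 0.489). All 3 overlapped between HF and LF.

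The acyl-CoA dehydrogenases, which open each turn of the spiral, were the role with the most genes and the most calls. As deposited 6 of 7 fell, against 35.3% of all tested genes, and with size factors 5, against 22.6%. Acadm (ENSMUSG00000062908, chromosome 3 from 153922357 to 153944632 on the minus strand), the medium-chain enzyme whose upstream bases are shown above, had 270.1, 260 and 249.7 TPM in HF laparotomy and 295, 315 and 297 TPM in HF control muscle. After laparotomy LF muscle had 324, 328 and 461 TPM, and LF controls had 343, 367 and 419 TPM. No HF library reached the lowest LF library (-0.25 ± 0.091, adjusted p = 0.00445 as deposited and 0.0449 with size factors). Acadl, the long-chain enzyme, had 293, 275 and 271 TPM after laparotomy and 315, 318 and 333 TPM in controls of the HF mice, against 368, 367 and 483 TPM after laparotomy and 377, 381 and 419 TPM in controls of the LF mice, again without overlap between HF and LF (-0.26 ± 0.076, adjusted p = 0.00181 as deposited and 0.032 with size factors). Acads, the short-chain enzyme, was far less abundant at 50, 46.5 and 50.2 TPM in HF laparotomy and 53.6, 60.9 and 60.6 TPM in HF control muscle. LF muscle had 62, 65.2 and 99.5 TPM after laparotomy and 67.2, 65.8 and 77.1 TPM in controls. Acads did not overlap between HF and LF either (-0.27 ± 0.11, adjusted p = 0.00771 as deposited and 0.043 with size factors). Its adjusted p was 0.0501 without a filter on low values. Acadvl, the very-long-chain enzyme of the inner membrane, at 265 to 337 TPM in HF and 354 to 555 TPM in LF, did not overlap either but was lower as deposited only (-0.27 ± 0.11, adjusted p = 0.0105 as deposited and 0.0996 with size factors). Its exons overlap those of Dvl2 on the opposite strand by 1151 bases, and whether reads were assigned by strand is unknown, being not given in the sources used here. The same holds for Acsl1 with a gene model on the opposite strand (1039 exon bases), Acsl5 with Zdhhc6 (404) and Echs1 with Paox (142).

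Acad9 and Acad11, at lower levels, had larger fitted differences, though the gap to the other dehydrogenases was not tested. Acad9 (ENSMUSG00000027710, chromosome 3 from 36065979 to 36092853 on the plus strand), a dehydrogenase better known as an assembly factor of respiratory complex I, had 5.57, 5.5 and 5.99 TPM after laparotomy and 6.04, 6.73 and 6.1 TPM in controls of the HF mice, against 7.8, 9.44 and 9.49 TPM after laparotomy and 8.53, 9.25 and 9.51 TPM in controls of the LF mice. The HF libraries formed a narrow band below the LF ones (-0.37 ± 0.073, adjusted p = 0.000494 as deposited and 0.000563 with size factors). Its annotated transcripts share stretches of at least 95% identity with a number of predicted genes, 1 of them at 6.49 TPM, so the level is uncertain. Acad11 (ENSMUSG00000090150, chromosome 9 from 104063377 to 104127725 on the plus strand), active on long and very long chains, had 14.3, 15.8 and 13.1 TPM in HF laparotomy and 14.1, 18.9 and 15.6 TPM in HF control muscle. The LF libraries were at 19.3, 22.3 and 29.4 TPM after laparotomy and 25, 25.4 and 27.7 TPM in controls. All HF libraries were below, with HF control 2 closest to the LF range (-0.51 ± 0.1, adjusted p = 0.000772 as deposited and 0.00133 with size factors). Acad10, chosen here after its values were seen, went the other way at 2.69, 2.85 and 2.63 TPM after laparotomy and 2.25, 3.23 and 2.46 TPM in controls of the HF mice, against 2.14, 2.3 and 2.78 TPM after laparotomy and 1.85, 1.98 and 2.91 TPM in controls of the LF mice. Its groups overlapped, it did not pass as deposited, and it rose with size factors (0.30 ± 0.1, adjusted p = 0.237 as deposited and 0.0259 with size factors) at a level of at most 3.23 TPM.

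Of the later steps, 4 of 5 genes fell as deposited, against 35.3% of all tested genes. With size factors 1 of the 5, Hadh, fell, against 22.6% of all. Hadh (ENSMUSG00000027984, chromosome 3 from 131233419 to 131272101 on the minus strand), the hydroxyacyl-CoA dehydrogenase of medium and short chains, had 172, 143 and 146 TPM in HF laparotomy and 166, 192 and 194 TPM in HF control muscle. Values in LF muscle were 206, 214 and 286 TPM after laparotomy and 227, 229.6 and 258 TPM in controls. The HF values all lay below the LF values (-0.34 ± 0.092, adjusted p = 0.00178 as deposited and 0.0177 with size factors). Hadha, the alpha subunit of the trifunctional protein, had 239.7 to 324 TPM in HF and 319 to 592 TPM in LF (-0.30 ± 0.13, adjusted p = 0.0172 as deposited and 0.0928 with size factors), and Hadhb, its beta subunit, had 347 to 474 TPM in HF and 434 to 756 TPM in LF (-0.22 ± 0.12, adjusted p = 0.0295 as deposited and 0.227 with size factors). Both calls ended with size factors, and that of Hadhb in 4 of the 12 fits without a library. The 2 genes start back to back on chromosome 5, at 30155162 and 30155248, across the 85 bases printed above. Their ratio, Hadhb over Hadha, was 1.54, 1.61 and 1.37 in HF laparotomy and 1.46, 1.42 and 1.46 in HF control muscle, against 1.43, 1.34 and 1.28 in LF laparotomy and 1.35, 1.53 and 1.43 in LF control muscle. HF and LF overlapped in it. Hadhb has near-identical pseudogene copies, which can share its reads. Echs1, the enoyl-CoA hydratase of short chains (97.4 to 121 TPM in HF and 119.6 to 171 TPM in LF), was lower as deposited only (-0.25 ± 0.098, adjusted p = 0.00687 as deposited and 0.0715 with size factors), and Acaa2, the mitochondrial thiolase (214 to 297 TPM in HF and 257 to 398 TPM in LF), did not pass (-0.09 ± 0.11, adjusted p = 0.086).

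Auxiliary enzymes prepare unsaturated chains for the spiral. Decr1, the mitochondrial dienoyl-CoA reductase, had 62.6, 56.7 and 57.7 TPM after laparotomy and 67.7, 68.1 and 72.5 TPM in controls of the HF mice, against 77.6, 77.1 and 119 TPM after laparotomy and 84.6, 79.2 and 87.8 TPM in controls of the LF mice, with every HF library below every LF library (-0.28 ± 0.099, adjusted p = 0.00491 as deposited and 0.0404 with size factors). Eci2, an enoyl-CoA isomerase of mitochondria and peroxisomes, had 51.9, 57.4 and 55 TPM in HF laparotomy and 67.3, 72.1 and 72.3 TPM in HF control muscle. For LF mice they were 74.2, 67.6 and 98.6 TPM after laparotomy and 89, 79 and 80.2 TPM in controls. HF lay below LF within each treatment (-0.23 ± 0.087, adjusted p = 0.00514 as deposited and 0.0492 with size factors). Eci1, the mitochondrial isomerase, did not pass at 165 to 221 TPM in HF and 166 to 270.4 TPM in LF (0.08 ± 0.11, adjusted p = 0.667). The ratio of Eci1 to Eci2 was 2.62 to 3.66 in HF and 2.0 to 2.79 in LF libraries.

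The electron carriers split. Etfdh (ENSMUSG00000027809, chromosome 3 from 79603788 to 79629500 on the minus strand), the oxidoreductase that passes electrons to ubiquinone, had 89.6, 87.9 and 89.9 TPM in HF laparotomy and 107, 119 and 117 TPM in HF control muscle. After laparotomy LF muscle had 123, 130.4 and 191 TPM, and LF controls had 147, 154 and 162 TPM. It did not overlap between HF and LF, and HF laparotomy lay below HF control (-0.42 ± 0.096, adjusted p = 0.00112 as deposited and 0.00334 with size factors). Etfa, the alpha subunit of electron transfer flavoprotein, also shown after its values were seen, had 283, 283 and 256 TPM after laparotomy and 312, 323 and 308 TPM in controls of the HF mice, against 324, 329.9 and 405 TPM after laparotomy and 387, 354 and 396 TPM in controls of the LF mice, without overlap between HF and LF. Its call held only as deposited (-0.17 ± 0.071, adjusted p = 0.00435 as deposited and 0.113 with size factors). Etfb, the beta subunit, which pairs with Etfa and was chosen here after its values were seen, had 493, 483 and 436 TPM in HF laparotomy and 449, 446 and 510.5 TPM in HF control muscle. LF muscle had 411, 360.1 and 539.9 TPM after laparotomy and 364, 348 and 402 TPM in controls. It did not pass as deposited and rose with size factors (0.38 ± 0.093, adjusted p = 0.0637 as deposited and 0.00994 with size factors), and it passed as deposited without LF laparotomy 3 (adjusted p = 0.00546). The ratio of Etfb to Etfa, free of the scaling between libraries, was 1.74, 1.71 and 1.7 in HF laparotomy and 1.44, 1.38 and 1.66 in HF control muscle, against 1.27, 1.09 and 1.33 in LF laparotomy and 0.941, 0.983 and 1.02 in LF control muscle. Every HF library exceeded every LF library. Etfb (ENSMUSG00000004610, chromosome 7 from 43444083 to 43457800 on the plus strand) shares 617 exon bases with another protein-coding gene annotated on its strand, and the part of that gene in the ratio was not tested.

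**Figure D4:**
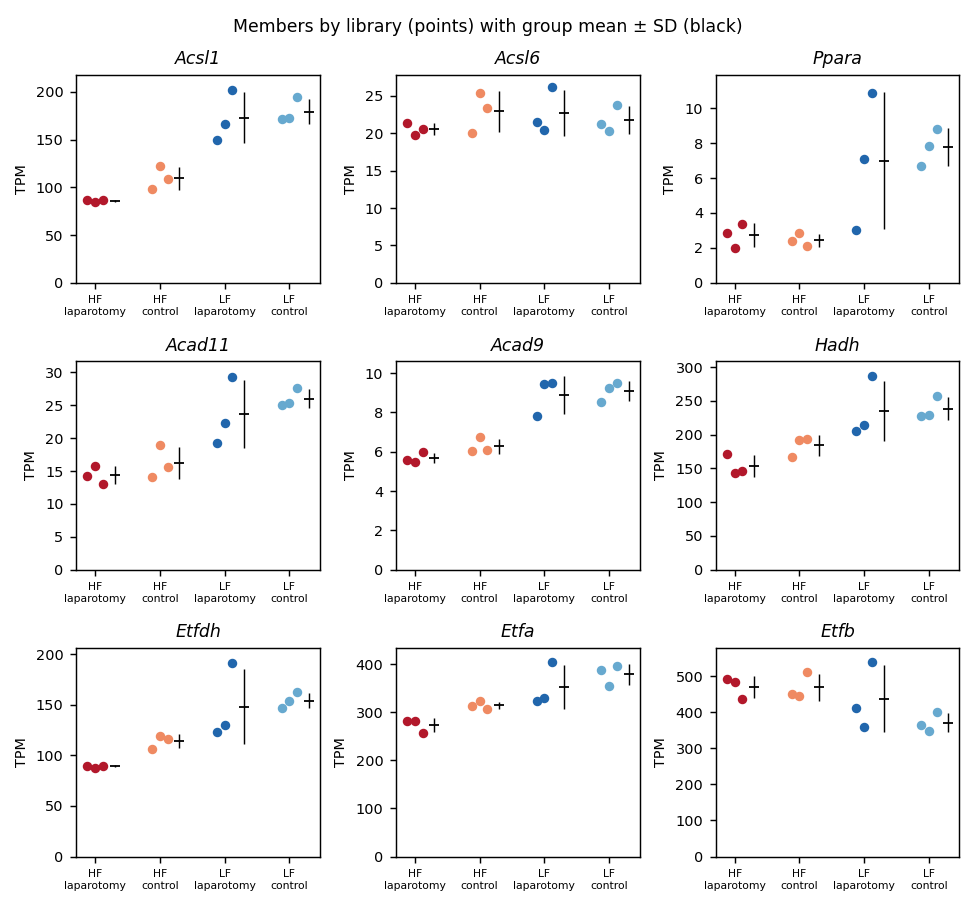
TPM of 9 genes in each library (points, 3 per group) with group mean ± SD (black), on linear axes from 0. Acsl1, Acad11, Acad9, Hadh, Etfdh and Etfa lie lower in both HF groups than in both LF groups without overlap, Ppara overlaps through LF laparotomy 1, and Acsl6 and Etfb overlap.

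Among the regulators Ppara (ENSMUSG00000022383, chromosome 15 from 85734983 to 85802819 on the plus strand), the PPAR that governs fatty acid oxidation, showed the largest difference of the 38 genes. It had 2.86, 2.0 and 3.39 TPM in HF laparotomy and 2.38, 2.83 and 2.08 TPM in HF control muscle. The LF libraries were at 3.02, 7.07 and 10.9 TPM after laparotomy and 6.67, 7.84 and 8.82 TPM in controls. The HF libraries were between 2.0 and 3.39 TPM, and LF laparotomy 1 alone among the LF libraries fell in that range (-1.02 ± 0.21, adjusted p = 0.00133 as deposited and 0.00179 with size factors). Ppard, the PPAR of exercise-trained muscle, was at 6.29 to 10 TPM in HF and 6.99 to 12.6 TPM in LF and passed as deposited only (-0.16 ± 0.12, adjusted p = 0.0473 as deposited and 0.24 with size factors), in 3 of the 12 fits without a library. Ucp3, an uncoupling protein of muscle mitochondria that responds to fatty acids, ranged over 8.52 to 22.3 TPM in HF and 13.3 to 20.7 TPM in LF and did not pass (-0.33 ± 0.19, adjusted p = 0.0566).

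Within each treatment 3 libraries stood against 3, with the spread estimated over all 12 libraries. Leaving out a library of a group not compared can therefore change these calls too. HF control against LF control gave 5 lower of 38, against 8.04% of all tested genes, and 0 higher, against 2.44%. The called share was 13.2% of the 38 genes and 10.5% of all. With size factors the same 5 genes were lower, against 9.35% of all, and 0 higher, against 7.61%. That is 13.2% of the 38 genes called and 17% of all. The 5 were Acsl1 (-0.60 ± 0.12, adjusted p = 0.0137 as deposited and 0.00672 with size factors), Ppara (-1.25 ± 0.29, adjusted p = 0.0215 as deposited and 0.013 with size factors) and Acad9 (-0.36 ± 0.1, adjusted p = 0.0219 as deposited and 0.0113 with size factors), with differences relative to the all-gene median of -0.108 in controls. Acad11 (-0.55 ± 0.15, adjusted p = 0.0229 as deposited and 0.0149 with size factors) and Acsl4 (-0.31 ± 0.12, adjusted p = 0.049 as deposited and 0.0357 with size factors) were the other two. As deposited, the number called in controls was 0 without HF control 1, LF control 2 or LF control 3, when at most 0.446% of all genes were called. It was 1 without HF control 3, when 0.613% were, and 16 without LF laparotomy 3, 15 lower and 1 higher, when 19.1% were. After laparotomy 21 fell in HF against LF, against 24.5% of all tested genes, and 0 rose, against 1.5%. The called share was 55.3% of the 38 genes and 26% of all. With size factors 5 fell, against 11.8% of all, and 0 rose, against 7.31%. That is 13.2% of the 38 genes called and 19.1% of all. Those 5 were Acsl1 (-0.80 ± 0.12, adjusted p = 0.00195 as deposited and 0.00192 with size factors), Acad9 (-0.37 ± 0.1, adjusted p = 0.00532 as deposited and 0.00868 with size factors) and Etfdh (-0.51 ± 0.14, adjusted p = 0.00639 as deposited and 0.0174 with size factors), relative to a median of -0.192. Acad11 (-0.47 ± 0.15, adjusted p = 0.00974 as deposited and 0.0247 with size factors) and Slc27a1 (-0.71 ± 0.24, adjusted p = 0.0195 as deposited and 0.0491 with size factors) completed them. As deposited, the count after laparotomy was 9 without HF laparotomy 2, when 10.4% of all genes were called. It was 10 without HF laparotomy 1, when 10.3% were, and 10 without LF laparotomy 3, when 10.6% were. Acsl1, Acad9 and Acad11 were called in both treatments under both scalings. In 19 genes, these included, HF lay below LF without overlap within each treatment, against 22.7% of all tested genes. Whether the differences between HF and LF themselves depend on treatment is the test of the difference of laparotomy effects given next.

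Laparotomy against control is the comparison the design text names. Of the 38 genes 0 passed in HF, 0 in LF, 0 averaged over function and 0 in the difference of the effects (limma, with 0 called among all 10757 genes in each). At an unadjusted p under 0.05 there were 4 in HF, 0 in LF, 5 averaged and 1 in the difference, against 6.18%, 2.71%, 6.94% and 3.08% of all genes. In HF the 4 genes, here without centring, were Acsl1, at -0.35 (95% interval -0.60 to -0.09, adjusted p = 0.655), and Eci2, at -0.36 (95% interval -0.63 to -0.09, adjusted p = 0.655). The others were Etfdh, at -0.35 (95% interval -0.65 to -0.06, adjusted p = 0.655), and Slc27a1, at -0.53 (95% interval -1.05 to -0.01, adjusted p = 0.655). In 13 genes all 3 HF laparotomy libraries lay below all 3 HF controls, against 16.6% of all tested genes, and in 0 above, against 0.604%. The 13 were Fabp3, Acsl1, Cpt1b, Cpt2, Acadl, Acadm, Acads, Acad9, Hadha, Eci2, Decr1, Etfa and Etfdh. The median of the 38 genes in HF was -0.201, against -0.121 for all tested genes, and with size factors -0.0607 against -0.00253. In LF muscle in 0 genes did laparotomy and control libraries separate, against 3.92% of all genes lower and 2.54% higher. Acsl4, at -0.21 (95% interval -0.48 to 0.06, adjusted p = 1), and Etfb, at 0.22 (95% interval -0.07 to 0.50, adjusted p = 1), had the smallest p there.

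**Figure D5:**
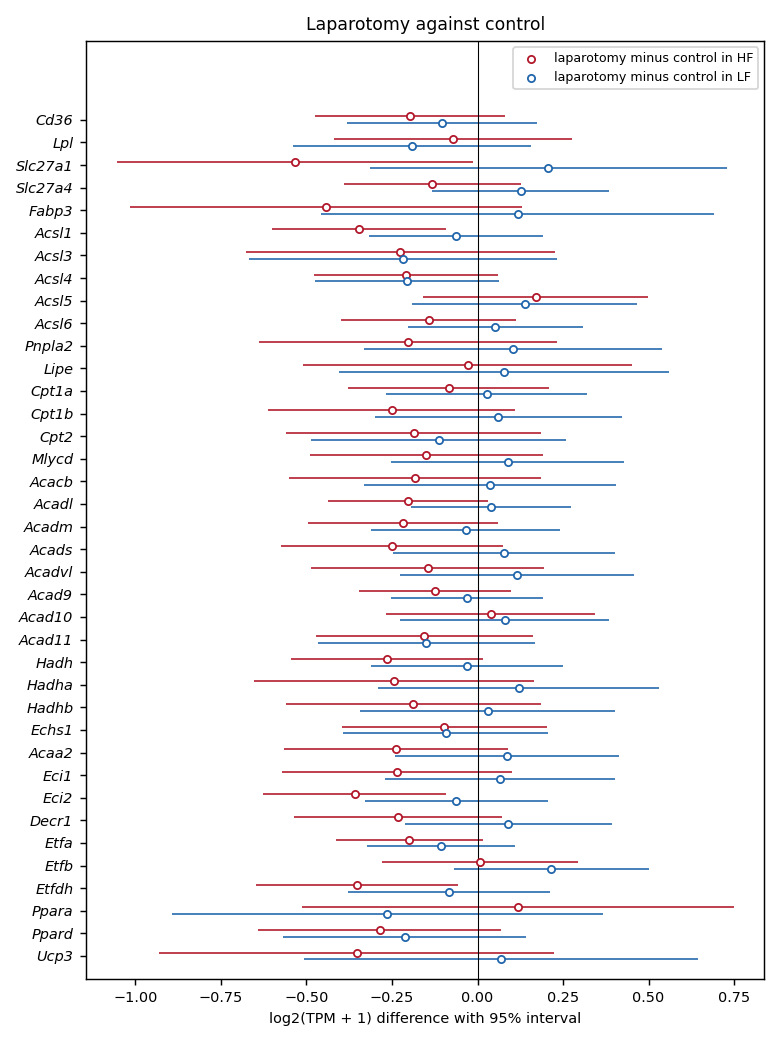
Laparotomy minus control for each gene in HF (red) and in LF (blue) muscle, as differences of log2(TPM + 1) with 95% intervals, 3 libraries against 3. The spread behind the intervals is estimated over all 12 libraries. All symbols are open because none passed, and all intervals in LF and all but 4 in HF span 0.

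The difference between the 2 laparotomy effects was nearest to the threshold for Slc27a1, at -0.74 (95% interval -1.48 to -0.0044, adjusted p = 1). Weighting libraries by their estimated quality, a fit whose weights had not converged, changed the count. Cd36, Lpl, Cpt2, Eci2 and Etfdh then fell after laparotomy in LF, against 3.73% of all genes lower and 6.82% called in either direction. Averaged over function Cd36, Lpl, Acsl1, Acsl4, Cpt2, Eci2, Etfa and Etfdh fell, against 5.21% of all genes lower and 5.86% called in either direction. These gene names follow the values, not a rule. With 3 libraries a group, a call missed does not show that laparotomy left a gene as it was.

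Other genes of fatty acid metabolism, 69 in a list of which 62 were tested, were compared in HF against LF averaged over treatments. As deposited 33 were lower, against 35.3% of all tested genes, and 3 higher, against 6.03%. With size factors 23 were lower, against 22.6% of all, and 5 higher, against 17.4%. The median of the 62 genes was -0.35 as deposited, against -0.147 for all tested genes. The 3 lower with the smallest p were Acadsb, the dehydrogenase of short branched chains (-0.66 ± 0.09, adjusted p = 0.000297 as deposited and 0.000185 with size factors), Gpam, the mitochondrial acyltransferase that begins triglyceride synthesis (-1.42 ± 0.19, adjusted p = 0.000312 as deposited and 0.000317 with size factors), and Prkaa2, a catalytic subunit of AMP-activated kinase, which inhibits acetyl-CoA carboxylase (-0.71 ± 0.12, adjusted p = 0.000446 as deposited and 0.000534 with size factors). The 3 higher were Gpihbp1, the capillary anchor of lipoprotein lipase (0.66 ± 0.099, adjusted p = 0.002 as deposited and 0.000787 with size factors), Fabp4 (0.63 ± 0.11, adjusted p = 0.00438 as deposited and 0.00328 with size factors) and Fabp5 (0.59 ± 0.1, adjusted p = 0.00439 as deposited and 0.00127 with size factors), binding proteins of endothelial cells and adipocytes. No gene of this list passed in a laparotomy comparison.

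Markers of other cell types, of fibre type and of mitochondria are given without a test, and the sums of the endothelial, adipocyte, slow and fast lists all overlapped between HF and LF. The sum over 7 endothelial markers, all above 1 TPM, was 195 to 267 TPM in HF and 160.4 to 218 TPM in LF libraries. Of these Egfl7 did not overlap, at 71 to 94 TPM in HF and 48.1 to 56.1 TPM in LF, while Pecam1 did, at 35.5 to 52.7 TPM in HF and 33.5 to 47.1 TPM in LF. Cd36 and Lpl are also known from endothelial cells and adipocytes. Over 8 adipocyte markers the sum was 378 to 616 TPM in HF and 299 to 385 TPM in LF libraries, most of it Fabp4. Of the defining adipocyte genes Adipoq was at 0.429 to 9.46 TPM in HF and 1.17 to 3.58 TPM in LF, and Plin1 was listed at 0 in 10 libraries. Cfd was at 3.07 to 61.4 TPM in HF and 9.63 to 19.8 TPM in LF, and Retn at 0.544 to 9.25 TPM in HF and 1.19 to 4.45 TPM in LF. Adipoq, Cfd and Retn were highest in HF control 3 and next in HF laparotomy 3. Cidec, Lep and Pck1 reached at most 3.85 TPM in any library. Of 3 brown fat markers Ucp1 was at 0 in all 12 libraries, and Cidea was at 8.34 to 14.6 TPM in HF and 7.92 to 15 TPM in LF. The 7 slow fibre markers summed to 36406 to 45208 TPM in HF and 30321 to 40006 TPM in LF, and the 8 fast fibre markers to 25524 to 40024 TPM in HF and 30968 to 41370 TPM in LF. Myh2, the myosin of fast oxidative fibres, did not overlap, at 1098 to 2082 TPM in HF and 2345 to 3381 TPM in LF. Cs, citrate synthase and a common gauge of mitochondria, was at 242 to 314 TPM in HF and 372 to 471 TPM in LF. The part of these in the differences of the 38 genes was not tested. A fast muscle covariate, log2(TPM + 1) of Myh4 minus that of Myh7, does not test it, since it holds neither Myh2 nor Cs. Myh4 was at 33.5, 62.4 and 90.8 TPM in LF control 3, LF laparotomy 1 and HF laparotomy 2, and at most 5.93 TPM elsewhere. With that covariate 22 genes fell in HF against LF, where 35.7% of all tested genes fell, and 0 rose, where 5.71% of all rose.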

How the data were processed

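The deposited values are gene-level TPM made by the authors, in 1 table of 12 libraries. Kallisto, DESeq2 and GRCm38 are named, without versions or roles, per the submitters' processing notes, and libraries were made from polyA RNA with a stranded kit, per the labels' protocols. Read depth, the use of strand and batches were not given in the sources used here. Of 30323 identifiers 29857 matched a symbol in GENCODE M21.

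The 10757 genes that averaged 1 TPM or more were taken as log2(TPM + 1) into limma 3.58.1 (R 4.3.3). The variance followed a trend on the mean level, each group had 1 mean, and 8 residual degrees of freedom remained. The 7 contrasts were tested two-sided, and the steps were tested on simulated data. The genes, the lists and the markers were chosen with earlier results of these data known. Values in every library are given for genes past the threshold in any contrast both as deposited and with size factors, and for the smallest p of each role, and others are said to be chosen later. The other fatty acid genes named were the 3 lower and 3 higher of smallest p. Promoters were to be printed for such genes with 1 of the 2 longer motifs, and as none had one, those shown were chosen otherwise.

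Alternatives tried were leaving out each library, median-of-ratios size factors, array weights, quantile normalization, a length and GC trend removed, and TPM rescaled to leave out 13 mitochondrial and the 10 highest genes. Others were robust eBayes, a fast muscle covariate, a threshold of 0.10, only the groups compared, a minimum of 5 TPM or none, and pseudocounts of 0.1 and 0.5. Near-identical copies were searched with BLAST 2.17.0 at 95% identity.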

Additional observations from a re-analysis of the deposited data

How the results depend on the processing

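In HF against LF averaged over treatments, 24 of the 38 genes were called as deposited. Acsl1, Acacb, Acadl, Acadm, Acad9, Acad11, Hadh, Eci2, Decr1, Etfdh and Ppara kept their call and direction in every planned setting that tested them, all 12 without a library included. The share of all tested genes that did so was not computed, so this is not shown to be particular to these genes. With size factors and without LF laparotomy 3, added after seeing the data, 10 were called, 8 lower and 2 higher, and Acadl, Acadm, Acads, Eci2 and Decr1 were not (adjusted p from 0.0715 to 0.104). Each count is followed in parentheses by the share of all tested genes called in the same fit. Ranges over fits without single libraries are exceptions: the ends of the count and of the share can come from different fits. Without a filter on low values 14 were called, all 14 lower (9.03% of all lower). Size factors gave 15 (40%), of them 13 lower (22.6%) and 2 higher (17.4%), and with LF laparotomy 3 also left out the 10 compare with 35.1%, the 8 lower with 19.5% and the 2 higher with 15.7%. The number higher was 3 with quantile normalization (18.8%), 1 on rescaled TPM (10%), 2 with the length and GC trend removed (16.9%), 2 with array weights (14.2%) and 1 at a threshold of 0.10 (8.83%). Without single libraries 19 to 25 were called (33.7% to 47.5%), 19 to 25 lower (28.5% to 41.6%) and 0 to 1 higher (4.3% to 6.97%). In HF against LF controls the 5 calls (10.5%) became 0 without a filter (0.165%), 12 with quantile normalization (19.4%), 13 on rescaled TPM (20.8%), 16 with array weights (31.7%), 10 at a threshold of 0.10 (22.8%), 11 with only the groups compared (14.8%), 8 with size factors without LF laparotomy 3 (19.2%), 2 without the 3 libraries with Myh4 above 30 TPM, added after seeing the data (1.27%), and 0 to 16 without single libraries (0.0186% to 19.4%). After laparotomy the 21 calls (26%) became 4 without a filter (2.4%), 5 with size factors (19.1%), 10 with the trend removed (18.5%), 10 with only the groups compared (12.9%), 3 with size factors without LF laparotomy 3 (8.58%) and 9 to 23 without single libraries (9.76% to 38.7%). In the laparotomy comparisons and their difference, 0 of the 38 genes were called in all settings except array weights, with 5 in LF (6.82%) and 8 averaged (5.86%). The causes were not tested, beyond fewer samples or more genes tested where the setting is that. Single genes were followed only in comparisons where they were called as deposited or with size factors. Of these 1369 results 273 lost their call, 12 gained one and none reversed. Calls gained by other genes, such as those under array weights, are not in that count, so losses and gains cannot be weighed against each other. No paired analysis was possible because the labels carry no replicate numbers. Depth is unknown, so low genes such as Cpt1a or Acad10 can be given no counting error.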

Other observations

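Some neighbouring steps of lipid metabolism, grouped after their values were seen, are given for HF against LF averaged over treatments, without a test of the group. Hsd17b4, a multifunctional enzyme of peroxisomal oxidation, fell under both scalings (-0.40 ± 0.093, adjusted p = 0.00115 as deposited and 0.00172 with size factors). Among 11 transcription factors and coregulators 8 fell as deposited, against 35.3% of all tested genes, and 7 with size factors, against 22.6%. Of these orphan receptors Esrrg (-0.61 ± 0.15, adjusted p = 0.00212 as deposited and 0.00261 with size factors) and Esrrb (-0.45 ± 0.13, adjusted p = 0.00341 as deposited and 0.00471 with size factors) fell. Esrra did not pass (-0.09 ± 0.11, adjusted p = 0.113 as deposited and 0.598 with size factors). Such receptors bind the element printed from Acsl6, but Acsl6 itself did not pass, and a link between them was not tested. Of 8 genes of triglyceride synthesis 4 fell as deposited, against 35.3% of all tested genes, and 2 with size factors, against 22.6%, near that share. Lpin1, a phosphatidate phosphatase, was among them (-0.78 ± 0.13, adjusted p = 0.000488 as deposited and 0.00117 with size factors). Dgat1, which adds the last acyl chain, did not pass as deposited and rose with size factors (0.25 ± 0.089, adjusted p = 0.393 as deposited and 0.0322 with size factors). All background shares are those of the tested genes given with the main comparison. Of 6 genes of fatty acid synthesis 1 fell under both scalings, against 35.3% and 22.6% of all tested genes. It was Acaca (-0.45 ± 0.14, adjusted p = 0.00502 as deposited and 0.0119 with size factors). Fasn (0.68 ± 0.34, adjusted p = 0.219 as deposited and 0.143 with size factors) and Scd1 (0.46 ± 0.46, adjusted p = 0.604 as deposited and 0.447 with size factors) did not pass.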
